A study of Homo sapiens with 6 samples.

Results

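The baseline described here is that of PANC-1 cells that received a null virus. PANC-1 is an established human cell line derived from a pancreatic cancer, and the null virus is the control for a lentivirus that knocks down SHMT2. Of the 6 RNA-seq libraries in the study, the 3 control-virus libraries were chosen by their sample titles. The 3 knockdown libraries enter no result, so every value below is a description of 1 group, given as mean ± SD over 3 libraries, with no test. The labels name no untreated PANC-1 cells, and they do not say whether the 3 libraries came from separate cultures. The SDs therefore give no more than how far these libraries lay apart, and that distance may be technical. All cells come from 1 line, and in such bulk RNA fewer cells expressing a gene and less RNA per cell cannot be told apart.

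Most pancreatic cancers arise in the exocrine pancreas and resemble its ducts, the tubes that carry digestive enzymes made by acinar cells. A cell's identity is held by a small set of lineage transcription factors, proteins that switch on the genes of 1 tissue, while keratins form the filaments of epithelial cells. Receptors set which outside signals a cell can read. Many metabolic steps are served by sister genes (isoforms), of which a cell type usually uses 1 more than the others.

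Control replicates 1, 2 and 3 held 16256045, 15405884 and 16366452 read counts. Levels are FPKM, the read count scaled to gene length and to the library's total. A gene was counted as expressed when it reached at least 1 FPKM in every control library. At this depth a gene with 0 counts in a library could still hold up to 3 counts there, and this limit covers counting error only. Of 20036 genes in the table, 9525 (47.5%) were expressed, 498 reached 1 FPKM in some libraries only, and 4487 had 0 counts in all 3. The median over all genes was 0.855 FPKM, and the median of the expressed genes was 7.62 FPKM. At least 10 FPKM in every library was reached by 3604 genes, at least 100 FPKM by 262 and at least 1000 FPKM by 18.

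A pair of features of these values bears on every level below. The first is that replicate 1 stood apart from replicates 2 and 3. Over the 9782 genes with a mean of at least 1 FPKM, the median absolute log2 difference in FPKM was 0.07 between replicates 2 and 3, 0.18 between 1 and 2, and 0.19 between 1 and 3. Without replicate 1 the counts changed little: 9643 genes were expressed in both other libraries, among them 49 lineage factors, 123 receptors and 5 keratins, against 49, 122 and 5 with it. The second is that 2915 genes overlap a neighbour on the same strand, so that reads can belong to either gene. Of these 2915 genes, 29.6% were expressed, against 50.6% of the other 17121. The translation factor gene EEF1G, needed in every cell, was among them with 0 counts in all 3 libraries. A low value of such a gene is therefore uncertain, and it is marked as sharing reads where it is named.

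Mitochondrial transcripts led the list of abundant genes. Of the 25 genes with the highest mean FPKM, 12 are encoded by the mitochondrial genome and make subunits of the respiratory chain. MT-CO2 (ENSG00000198712, mitochondrial positions 7586 to 8269), which encodes a subunit of cytochrome oxidase, was at 11030, 13424 and 13531 FPKM in replicates 1, 2 and 3. It was the most abundant gene in mean FPKM (12662 ± 1414), followed by MT-CO1 (8737 ± 630) and MT-CO3 (8121 ± 341, sharing reads). These are the 3 mitochondrially encoded subunits of the same enzyme. MT-CO1 and MT-CO3 did not overlap in replicates 2 and 3, but the means of MT-CYB (4693 ± 362 FPKM) and MT-ND2 (4680 ± 520 FPKM) lay within their spread. The 13 protein-coding mitochondrial genes together held 5.78%, 6.72% and 6.86% of all counts in replicates 1, 2 and 3. Replicate 1 was the lowest of the 3, and all 13 genes were lower there than the mean of replicates 2 and 3.

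**Figure D1:**
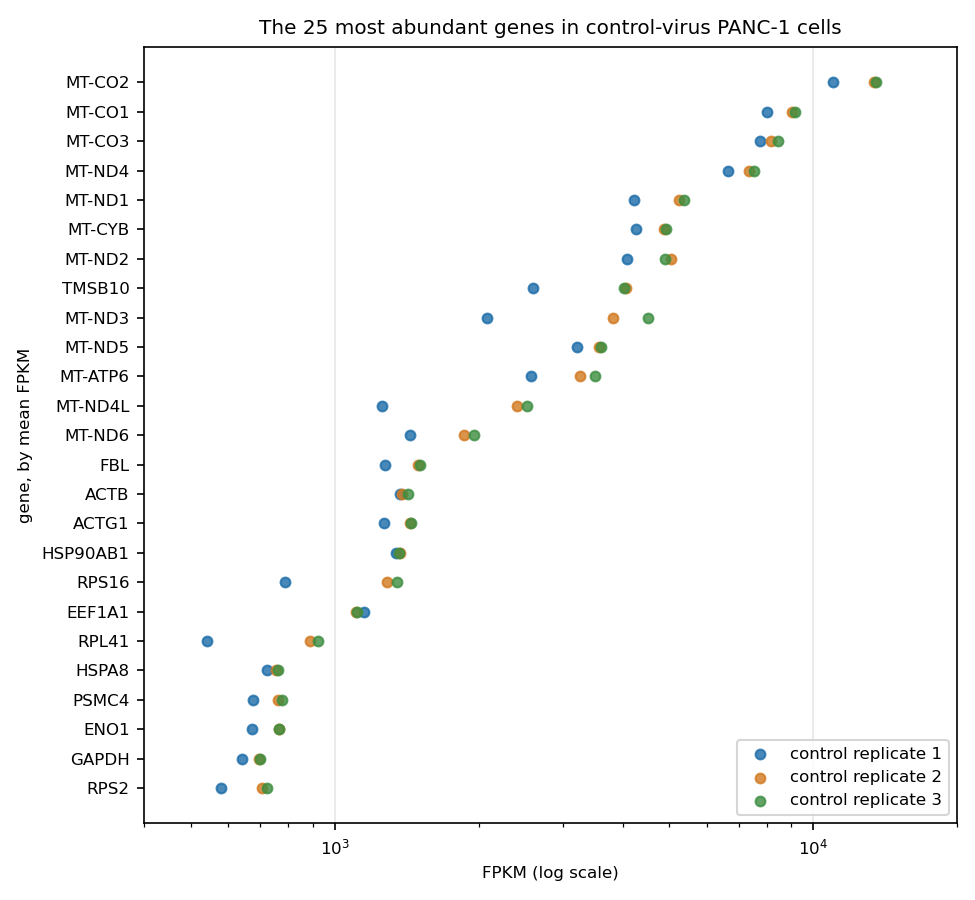
FPKM of the 25 most abundant genes (rows, ordered by mean FPKM) in the 3 control-virus libraries (coloured points) on a log axis. The mitochondrially encoded genes fill most of the upper rows, and control replicate 1 lies to the left for short genes such as TMSB10 (2593 FPKM against 4068 and 4022).

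Among nuclear genes, TMSB10, which encodes a small actin-binding thymosin, had the highest mean (3561 ± 839 FPKM). Its values were 2593, 4068 and 4022 FPKM, so replicate 1 lay apart from the other two. FBL, which encodes the nucleolar enzyme that methylates ribosomal RNA, had the next highest mean, with 1276, 1492 and 1505 FPKM, but in replicate 1 it lay below ACTB and HSP90AB1. The actin genes ACTB (1393 ± 26.0 FPKM) and ACTG1 (1384 ± 99.6 FPKM) and the chaperone gene HSP90AB1 (1359 ± 13 FPKM) followed. ACTB lay above HSP90AB1 with no overlap, while neither could be ordered against FBL or ACTG1 beyond their spread. Actin forms the cell's thin filaments, and HSP90AB1 folds client proteins. RPS16, a gene of the small ribosomal subunit, was at 787, 1285 and 1352 FPKM, again lowest in replicate 1. The elongation factor gene EEF1A1 was steadier, at 1152, 1109 and 1116 FPKM.

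The remaining 6 of the 25 were RPL41 (785 FPKM) and RPS2 (669 FPKM, sharing reads) of the ribosome, the chaperone gene HSPA8 (746 FPKM), the proteasome ATPase gene PSMC4 (737 FPKM), and the glycolytic genes ENO1 (734 FPKM) and GAPDH (679 FPKM). The 25 genes held 10.3%, 11.7% and 11.9% of counts in replicates 1, 2 and 3 (11.3 ± 0.867%). The top 50% of counts was held by 792, 735 and 723 genes, out of 14537, 14508 and 14506 genes with a count. Other glycolytic genes followed, with PKM at 328 ± 14.9, LDHA at 280 ± 5.62, PGAM1 at 268 ± 23.8 and TPI1 at 217 ± 17.9 FPKM. The 10 listed glycolytic enzyme genes held 1.27 ± 0.0764% of counts. ALDOA, which encodes an aldolase, was an exception at 0.353, 0.576 and 0.335 FPKM, but it shares reads with a neighbour.

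Levels between genes depend on the length that divides the count. The deposited lengths have a median of 4411.5 bases, against 2635 for the principal transcripts of GENCODE release 29, and EEF1A1 is given 10063 bases in place of 2303. Dividing by principal length kept 21 of the 25 genes, and 9 of the 13 nuclear ones. It raised RPS16 to 5449 ± 1475 and EEF1A1 to 4918 ± 100 FPKM, above every other nuclear gene of the 25.

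The leaders FBL and PSMC4 lie close together on chromosome 19, and RPS16 lies nearby. The genes in this paragraph other than these were named after their values were seen. Of 18796 runs of 25 neighbouring genes across the genome, the one from SIRT2 to TIMM50 (chr19:38878555-39493785) had the highest median, 30.1 FPKM. The next highest elsewhere, on chromosome 5 from DUSP1 to FAF2, had a median of 15.2 FPKM, and the median over all runs was 1.31 FPKM. The chromosome 19 run was also the highest in each library taken alone, with medians of 27.5, 28.5 and 30.0 FPKM in replicates 1, 2 and 3.

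Extended to AKT2 (chr19:38878555-40285536), the stretch holds 45 genes with a symbol, 28 of them expressed with a median of 64.5 FPKM. Its ends were set after the values were seen. Within it, 7 genes reached a mean of 100 FPKM, against 1.46% of all genes with a symbol. Besides FBL, RPS16 and PSMC4 these were PAF1 (394 ± 14.4 FPKM) and MED29 (183 ± 6.77 FPKM), both parts of the machinery around RNA polymerase, the elongation factor gene SUPT5H (162 ± 5.49 FPKM), and TIMM50 (142 ± 29.3 FPKM), of the mitochondrial import machinery. AKT2, a kinase gene known to be amplified in some pancreatic cancers, was at 95.2, 101 and 99.6 FPKM. Genes with 0 counts stood among them, 7 in all, such as the interferon gene IFNL2 and the galectin gene LGALS13. DNA copy number was not measured.

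Most lineage factors were not expressed. Of 179 listed factors, 49 were expressed (27.4%, against 47.5% of all genes), 74 were below 1 FPKM, 1 was on both sides and 55 had 0 counts in all 3 libraries. The median over the list was 0.0293 FPKM. The factors that were expressed came from several lineages at once: duct and endoderm factors beside factors of mesenchyme, blood, kidney and germ line.

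**Figure D2:**
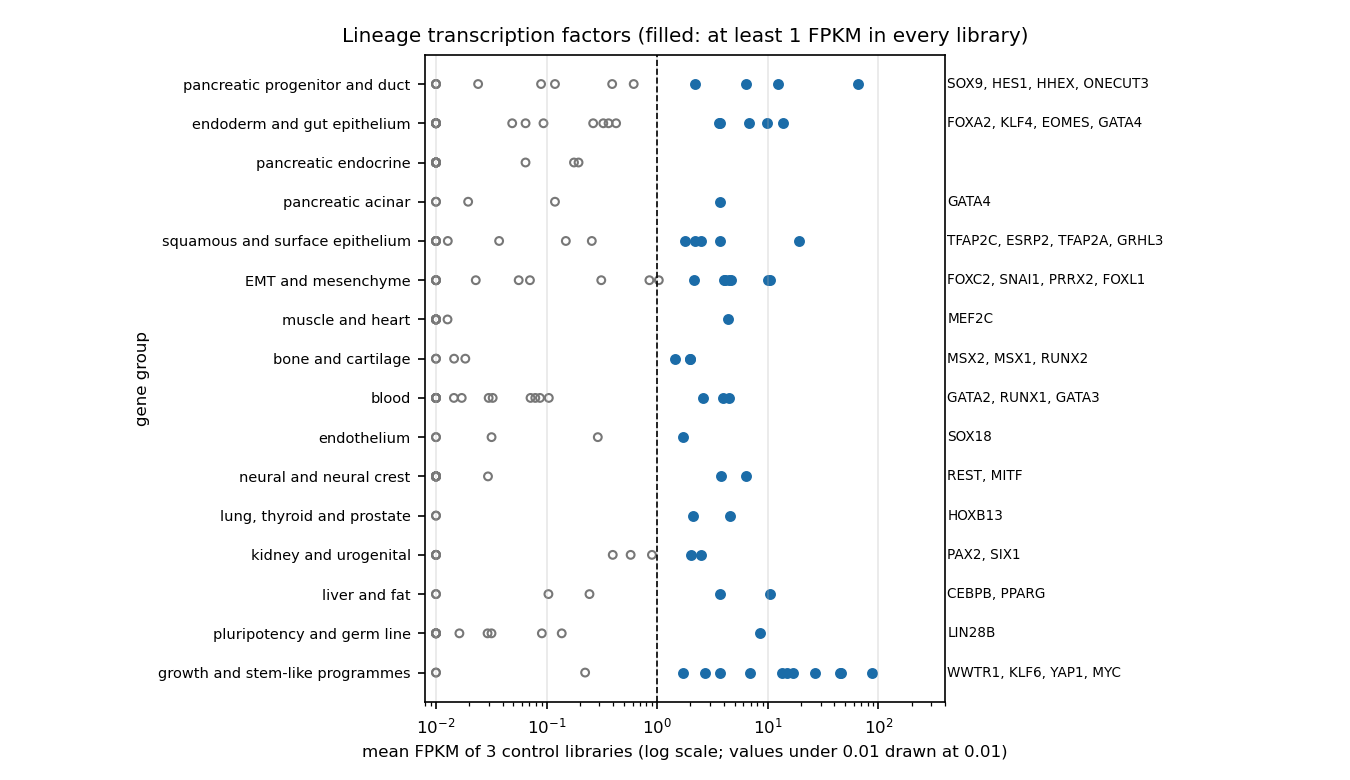
Mean FPKM over the 3 control-virus libraries (log axis) of each listed lineage factor, 1 row per group, with filled points for factors at 1 FPKM or more in every library and up to 4 of the higher ones named at the right. The endocrine row holds no filled point, and the row of growth and stem-like programmes holds the highest value, WWTR1 at 86.6 FPKM.

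The duct and progenitor group had 4 of 12 expressed members (33.3%, against 47.5% of all genes). SOX9, the factor that marks pancreatic duct cells and progenitors (ENSG00000125398, chr17:72121020-72126416), was at 67.4, 63.5 and 65.3 FPKM. By the deposited lengths it ranked behind only WWTR1 in the whole list. By principal length both WWTR1 (344 ± 4.40 FPKM) and MYC (89.3 ± 4.62 FPKM) stood above SOX9 (65.4 ± 1.97 FPKM). HES1, the effector of Notch signalling, was at 11.3, 13.4 and 12.6 FPKM, and HHEX, a factor of the early foregut, at 5.68, 6.87 and 6.69 FPKM. Other factors of the same tissue were near 0. PDX1, the master factor of the embryonic pancreas, had 3, 6 and 2 counts (0.0709, 0.150 and 0.0469 FPKM). PTF1A, the acinar factor, had none, which allows at most 0.115 FPKM per library.

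Endoderm factors were split in the same way, with 5 of 19 expressed (26.3%, against 47.5% of all genes). FOXA2, a pioneer factor that opens chromatin in gut-derived tissue, was at 13.7, 14.2 and 13.3 FPKM, while its relatives FOXA1 (0.326 ± 0.0288 FPKM) and FOXA3 (0.264 ± 0.130 FPKM) were below 1 FPKM in every library. GATA4 was expressed (4.13, 3.35 and 3.64 FPKM) while GATA6, which marks the classical subtype of pancreatic cancer, had 8, 7 and 2 counts (0.0938 ± 0.0536 FPKM). KLF4 (9.92 ± 1.04 FPKM) and KLF5 (3.63 ± 0.215 FPKM) were expressed. HNF4A, a regulator of liver and gut genes, had 0, 0 and 1 counts. EOMES, a T-box factor of early endoderm and of lymphocytes, was at 6.66, 6.41 and 7.02 FPKM. Beside it, PTPRC, the gene of the pan-leukocyte protein CD45, had a mean of 0.00132 FPKM and the T-cell gene CD3E had 0 counts, while the T-cell gene CD8A had 17, 32 and 32 counts (0.426 ± 0.142 FPKM).

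No endocrine factor was expressed, 0 of 14, against 47.5% of all genes. NEUROD1, NEUROG3, PAX4, PAX6, NKX2-2 and INSM1 were among the 8 with 0 counts, and the highest of the group, NKX6-2, had a mean of 0.195 FPKM. NEUROD1 shares reads with a neighbour. REST, which represses neuronal and endocrine genes, was expressed at 8.06, 5.71 and 5.26 FPKM, highest in replicate 1.

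Of 17 mesenchymal factors 7 were expressed (41.2%, near the 47.5% of all genes). FOXC2 (9.78, 10.3 and 11.3 FPKM) and SNAI1 (10.8, 9.94 and 9.57 FPKM) led, both known drivers of the epithelial-mesenchymal transition, in which epithelial cells loosen their contacts. ZEB1, a repressor of epithelial genes, was at 6.18, 3.07 and 3.19 FPKM, so its level in replicate 1 lay well above the others. The better-known relatives were lower: SNAI2 was at 0.850 ± 0.0122 FPKM, ZEB2 at 0.0560 ± 0.0283 FPKM, and TWIST1 had 0 counts, which allows at most 0.0939 FPKM. Of the factors that keep surface epithelium in its state, TFAP2C (19.9, 17.2 and 20.03 FPKM), ESRP2 (3.70 ± 0.0821 FPKM) and GRHL3 (2.18 ± 0.230 FPKM) were expressed. GRHL2 and OVOL1 had 0 counts, and TP63, the factor of squamous epithelium, had 2, 1 and 0.

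The highest lineage-list values belonged to growth regulators, with 11 of 14 expressed (78.6%, against 47.5% of all genes). WWTR1, which encodes TAZ, an effector of the Hippo pathway, was at 87.4, 85.4 and 87.1 FPKM, and its partner YAP1 at 41.1, 46.1 and 46.9 FPKM. All 4 TEAD genes, which encode the DNA-binding partners of both, were expressed, from TEAD2 (2.73 ± 0.427 FPKM) to TEAD1 (14.8 ± 2.73 FPKM). MYC, a driver of cell growth, was at 25.03, 27.1 and 27.6 FPKM, while MYCN had 0 counts. TEAD1 and TEAD4 (13.5 ± 0.951 FPKM) could not be ordered, since TEAD1 was the higher in replicate 1 and the lower in replicates 2 and 3.

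Factors from distant tissues were present at moderate levels. LIN28B, an RNA-binding protein of embryonic and germ cells, was at 10.7, 7.86 and 7.03 FPKM. It was the only expressed member of 12 in its group (8.33%, against 47.5% of all genes). PAX2, a kidney factor, was at 2.51, 2.41 and 2.57 FPKM. GATA2 (4.44 ± 0.205 FPKM) and RUNX1 (3.97 ± 0.229 FPKM) stand in the blood group. Of that group 3 of 17 were expressed (17.6%, against 47.5% of all genes). None of the muscle factors MYOD1, MYF5 and MYOG had a count. HOXB13 (2.11 ± 0.138 FPKM), a prostate factor, was expressed.

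HOX genes, which set position along the body axis, were expressed by cluster, and apart from HOXB13 they were named after their values were seen. Expression was found for 9 of 10 HOXB and 7 of 9 HOXC genes, against 1 of 11 HOXA and 0 of 9 HOXD genes. The whole HOX list had 17 of 39 genes expressed (43.6%, near the 47.5% of all genes). HOXC10 was at 30.9, 31.2 and 33.9 FPKM and HOXB7 at 24.9, 31.0 and 33.4 FPKM, the highest of the 39. Reads can be shared within the clusters for 23 of the 39 genes, HOXC10 and HOXB7 included. Of the genes not expressed in every library, 6 of the HOXA and 4 of the HOXD cluster share reads, so the low counts of these clusters are uncertain too.

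Cell type markers were used to check the label of a pancreatic cancer line. Of 10 ductal markers 6 were expressed (60.0%, against 47.5% of all genes): KRT8, KRT18, SOX9, EPCAM (7.23 ± 0.232 FPKM), CA2 (2.46 ± 0.166 FPKM) and MUC1 (1.97 ± 0.295 FPKM, sharing reads). The chloride channel gene CFTR, a defining duct gene, had 0 counts, which allows at most 0.0111 FPKM. The bicarbonate transporter gene SLC4A4 had a single count. Summed over the ductal list, the level was 295, 370 and 368 FPKM in replicates 1, 2 and 3. Most of this sum came from KRT8, KRT18 and SOX9, with means of 134, 133 and 65.4 FPKM. The ductal markers KRT7 and KRT19 had means of 0.266 and 0.0634 FPKM. No acinar marker was expressed: 10 of 12 had 0 counts, among them PRSS1, PNLIP and CPA1, and the summed level was 0.0775, 0.182 and 0.0864 FPKM.

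Markers of other cell types were low. None of 12 immune markers was expressed, with a summed level of 1.05 to 1.59 FPKM and 7 genes at 0 counts, CD3E and HBB among them. The highest were CD14, of monocytes, at 0.703 ± 0.247 FPKM, and CD8A. Of 10 fibroblast markers COL1A1 alone was expressed (8.48, 9.91 and 8.73 FPKM), while COL1A2, DCN and FAP had 0 counts. ESAM was the only expressed one of 8 endothelial markers (3.45 ± 0.417 FPKM), and PECAM1 and CDH5 were each at under 0.01 FPKM on average. Among 12 endocrine markers, the granule genes SCG2 (1.65, 1.94 and 1.64 FPKM) and CHGB (1.19, 1.01 and 1.06 FPKM) passed 1 FPKM. INS, SST and PPY had 0 counts, and INS shares reads with a neighbour. Of 7 markers of an embryonic kidney line PAX2 alone was expressed. WT1 lay just below the threshold, at 0.945, 0.918 and 0.826 FPKM (125, 115 and 110 counts). LHX1 had 56, 39 and 41 counts (0.575 ± 0.109 FPKM). EYA1 had 0, 1 and 0 counts, and SALL1, SIX2 and HOXD10 (sharing reads) had none. The share expressed over all genes was 47.5%.

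Genes that sort pancreatic tumours into subtypes were mostly not expressed. Of 24 genes of the classical, gland-like subtype only AGR2, which encodes a protein-folding enzyme of the secretory pathway, was expressed, at 86.1, 92.2 and 98.1 FPKM. That was 4.17% of the list, against 47.5% of all genes. The next in this list, VSIG2, had a mean of 0.432 FPKM, so AGR2 stood far from the rest. Of 24 basal-like genes 7 were expressed (29.2%, against 47.5% of all genes). Among them were SLC2A1 (14.2 ± 0.859 FPKM), AREG (12.3 ± 0.304 FPKM), which encodes the EGF receptor ligand amphiregulin, and the protease gene CTSV (5.33 ± 0.332 FPKM). The basal-like keratin genes KRT6A and KRT17 and the squamous antigen genes SERPINB3 and SERPINB4 were not expressed. MUC1 was the only expressed mucin of 9 (11.1%), and MUC4 and MUC16, often abundant in pancreatic cancer, had 1 and 2 counts in all.

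Among 13 pancreatic cancer driver genes, 8 were expressed (61.5%, against 47.5% of all genes). SMAD4, the central mediator of TGF-beta signals, was at 2.47, 2.75 and 2.79 FPKM and shares reads. CDKN2A (chr9:21967752-21995301) and its neighbour CDKN2B (chr9:22002903-22009305), which encode inhibitors of the cell cycle kinases, had 0 counts, which allows at most 0.0483 and 0.0469 FPKM. MTAP (chr9:21802636-21937651), which lies beside them and encodes an enzyme of methionine salvage, had 8, 6 and 6 counts (0.0286 ± 0.00460 FPKM). These 3 neighbours were thus at or near 0 together, and DNA copy number was not measured.

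Keratin expression was narrow. Of 55 keratin genes 5 were expressed (9.09%, against 47.5% of all genes), 22 had counts but stayed below 1 FPKM, and 28 had 0 counts. The leading pair was KRT8 (ENSG00000170421, chr12:52897187-52949954) and KRT18 (ENSG00000111057, chr12:52948871-52952906), which pair in the filaments of simple epithelium. KRT8 was at 118, 144 and 139 FPKM and KRT18 at 97.3, 150 and 152 FPKM. By the deposited lengths the means, 134 ± 13.8 and 133 ± 31.0 FPKM, could not be ordered, and both genes were lowest in replicate 1. By principal length KRT8 stood above KRT18, at 489 ± 50.3 against 274 ± 63.8 FPKM. Their spans overlap on opposite strands, and the strand setting of the counting is not given in the sources used here, so reads at that overlap cannot be told apart.

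**Figure D3:**
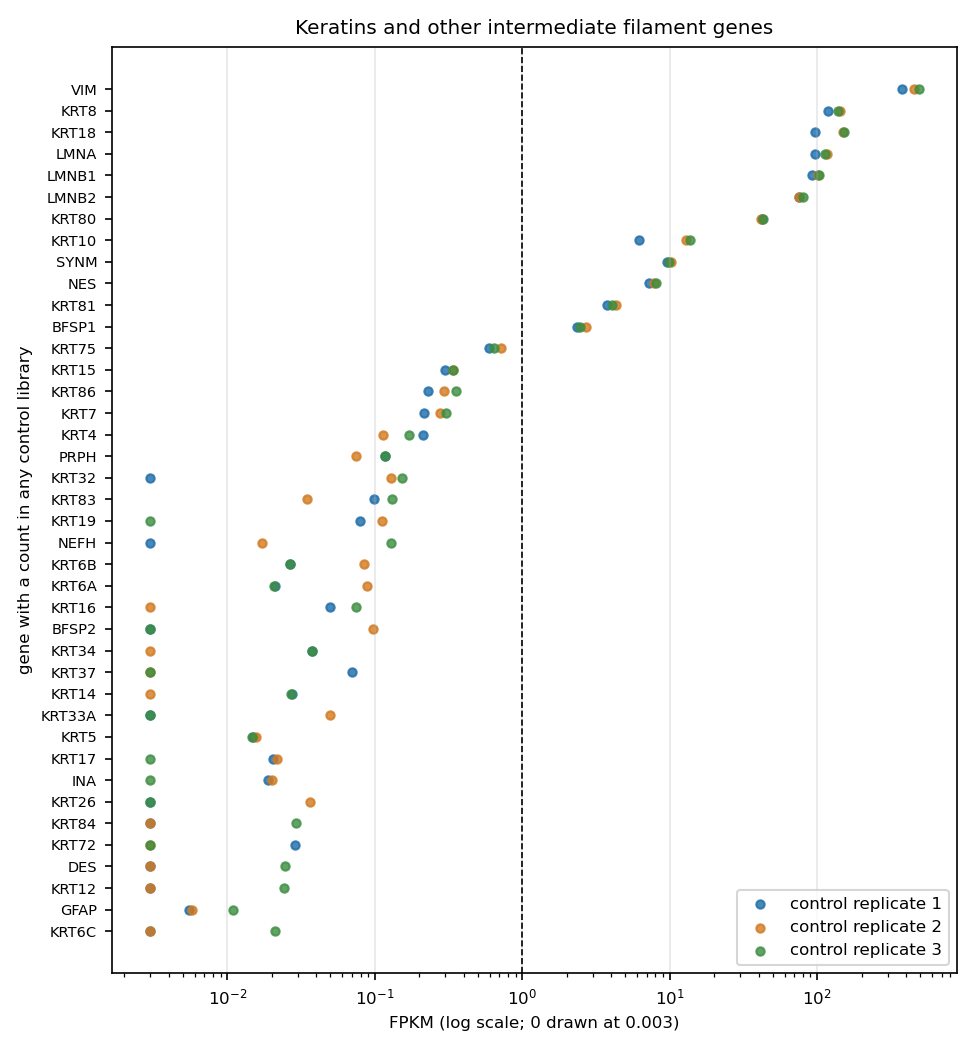
FPKM on a log axis of every keratin and other intermediate filament gene with a count in any control library (rows), 1 coloured point per library, with the line at 1 FPKM. VIM, KRT8, KRT18 and the lamin genes lie at the right, and KRT7 (0.215, 0.276 and 0.306 FPKM) and KRT19 (0.0790, 0.111 and 0 FPKM) lie left of the line.

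Below the leading pair came KRT80 at 42.0, 41.4 and 42.6 FPKM, a keratin of differentiating and glandular epithelium, with the lowest coefficient of variation of the 5 (1.37%). KRT10, known from the upper layers of skin, was at 6.17, 12.8 and 13.7 FPKM, so that replicate 1 held less than the other two. KRT81, a hair keratin, was at 3.73, 4.31 and 4.09 FPKM. The 2 keratins that with KRT8 and KRT18 define pancreatic ducts were not expressed. KRT19 had 3, 4 and 0 counts (0.0634 ± 0.0572 FPKM). KRT7 had 14, 17 and 20 counts (0.266 ± 0.0460 FPKM) and shares reads with a neighbour. The basal keratins KRT5 and KRT14 had at most 1 count in a library, and KRT20, of intestinal epithelium, had none.

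The mesenchymal filament gene VIM was at 377, 456 and 487 FPKM, above every keratin in each library. The nuclear lamin genes LMNA (109 ± 10.3 FPKM), LMNB1 (98.9 ± 5.92 FPKM) and LMNB2 (76.8 ± 2.54 FPKM) were all expressed. NES, a filament gene of progenitor cells, was at 7.71 ± 0.433 FPKM, and the muscle gene DES and the glial gene GFAP were below 0.01 FPKM on average. Of 14 linker and desmosome genes 7 were expressed (50%, near the 47.5% of all genes), led by PLEC (38.4 ± 1.91 FPKM) and DSG2 (26.6 ± 3.38 FPKM), which anchor filaments at the cell surface. The skin desmosome genes DSG1, DSG3 and PKP1 each had a mean under 0.01 FPKM.

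Junction genes showed a like split between members. The epithelial cadherin gene CDH1 had 12, 9 and 23 counts (0.121, 0.0961 and 0.231 FPKM), while the neural cadherin gene CDH2 was at 4.0, 3.41 and 3.35 FPKM. In every library CDH2 was above CDH1. Tight junction genes were nevertheless expressed: CLDN4 at 11.8 ± 1.26, TJP1 at 9.29 ± 2.74 and OCLN at 9.18 ± 1.47 FPKM. Of 23 cadherin and junction genes 10 were expressed (43.5%, near the 47.5% of all genes).

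Receptors for outside signals were expressed by 122 of 316 listed genes (38.6%, against 47.5% of all genes). A further 8 passed 1 FPKM in some libraries only, 137 were below 1 FPKM and 49 had 0 counts. Reads can be shared for 31 of the 316, of which 26 were not expressed. The median over the list was 0.263 FPKM.

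**Figure D4:**
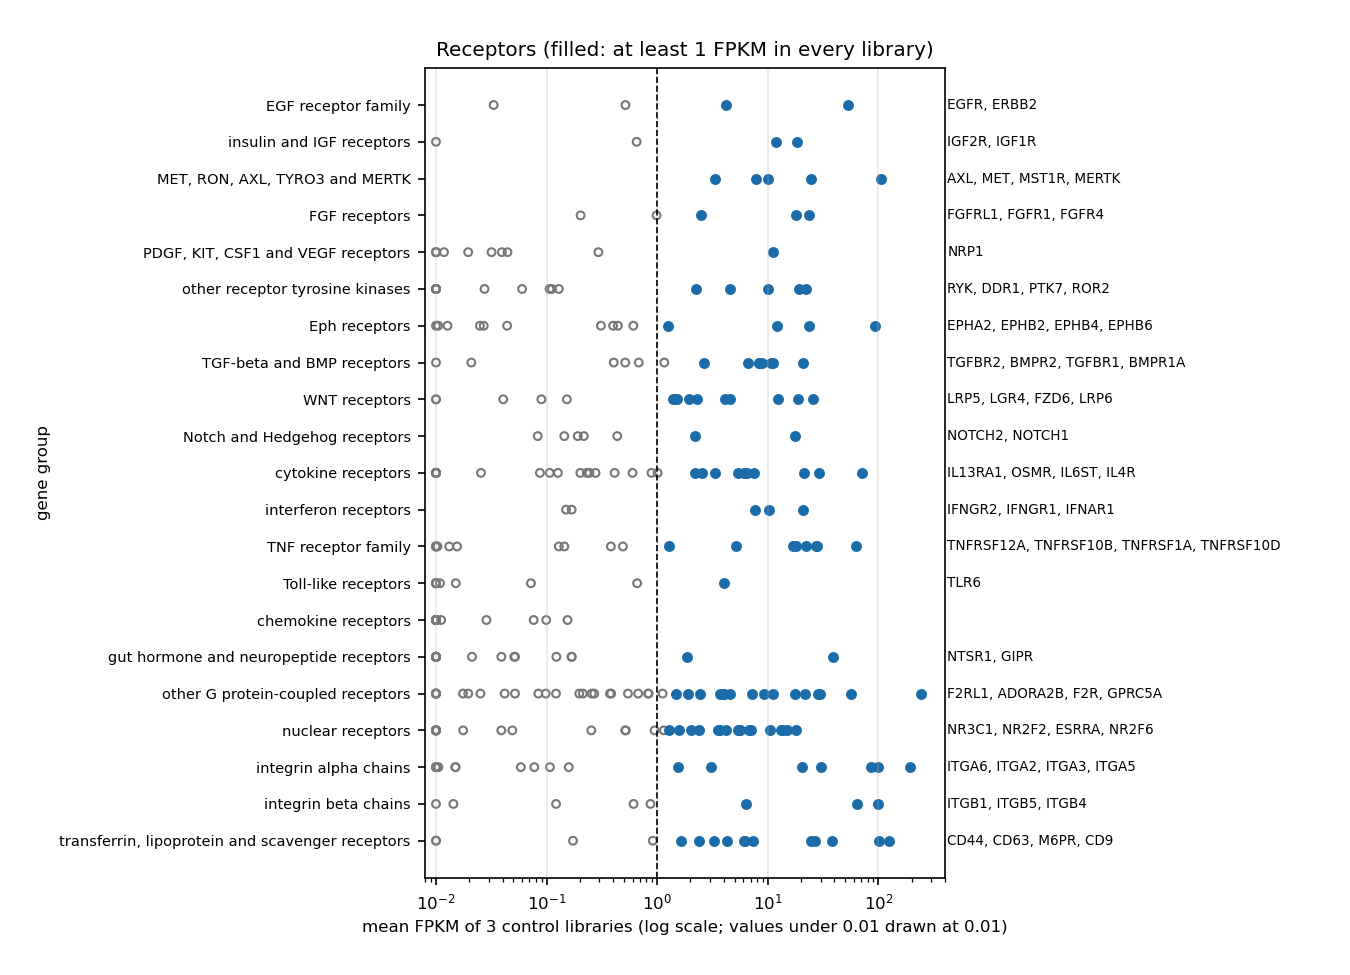
Mean FPKM over the 3 control-virus libraries (log axis) of each listed receptor gene, 1 row per family, with filled points for genes at 1 FPKM or more in every library and up to 4 of the higher ones named at the right. F2RL1 lies farthest right at 245 FPKM, and the chemokine receptor row has no filled point.

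By the deposited lengths the highest receptor was F2RL1 at 232, 254 and 249 FPKM (ENSG00000164251, chr5:76818933-76835315). It encodes PAR2, a G protein-coupled receptor that is activated when trypsin or a related protease cuts it. ITGA6, which encodes the laminin-binding integrin alpha chain, was at 229, 172 and 173 FPKM, and overlapped none of the 3 values of F2RL1. CD44, the hyaluronan receptor, followed at 129, 125 and 123 FPKM, and AXL, a receptor tyrosine kinase for the ligand GAS6, at 104, 105 and 108 FPKM. The next 4, CD63, ITGA2, ITGB1 and EPHA2, had means of 101 to 93.7 FPKM. Values of the first 3 lay on both sides of those of EPHA2 (91.4, 93.3 and 96.4 FPKM). The order of receptors depends on the length used. By principal length ITGB1 (389 ± 99.1 FPKM) stood above F2RL1 (246 ± 11.9 FPKM), and CD63 (238 ± 30.7 FPKM) lay near F2RL1.

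Integrins link the cell to its matrix. Of 17 alpha chains 7 were expressed (41.2%, near the 47.5% of all genes). They were led by ITGA6, ITGA2 (123, 90.0 and 85.3 FPKM), ITGA3 (85.3 ± 4.11 FPKM), ITGA5 (30.4 ± 1.5 FPKM) and ITGAV (20.5 ± 2.46 FPKM). Of 8 beta chains 3 were expressed (37.5%), namely ITGB1 (128, 84.1 and 85.2 FPKM), ITGB5 (63.8 ± 4.58 FPKM) and ITGB4 (6.33 ± 0.316 FPKM). ITGA6, ITGA2 and ITGB1 were all highest in replicate 1, by contrast with the short genes above. Among the alpha chains of white blood cells, ITGAM had a mean of 0.0585 FPKM.

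Growth factor receptors differed sharply within families. EGFR was at 58.2, 51.1 and 49.3 FPKM and its relative ERBB2 at 4.02, 4.24 and 4.19 FPKM. ERBB3 (0.516 ± 0.0590 FPKM, sharing reads) and ERBB4 (0.0332 ± 0.0183 FPKM) were not expressed. By principal length ERBB3 lay at the threshold, at 1.02 ± 0.117 FPKM. The family of MET, the receptor for hepatocyte growth factor, with RON, AXL, TYRO3 and MERTK was expressed in full. That was 5 of 5 genes (100%, against 47.5% of all genes). MET was at 30.2, 22.8 and 21.5 FPKM and MST1R, the gene of RON, at 10.03, 10.4 and 9.73 FPKM. EPHA2, a receptor for ephrins on neighbouring cells, was at 91.4, 93.3 and 96.4 FPKM and led 14 Eph receptors. Of these 14, 4 were expressed (28.6%).

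The insulin family held a contrast of its own. IGF1R, the receptor for insulin-like growth factors, was at 11.7, 12.6 and 11.6 FPKM, while the insulin receptor INSR was at 0.670, 0.665 and 0.621 FPKM, below 1 FPKM in each library. FGFR1 (18.1 ± 0.616 FPKM) and FGFR4 (2.51 ± 0.0378 FPKM) were expressed. FGFR3 straddled the threshold at 0.939, 0.937 and 1.08 FPKM. Of 10 receptors of the PDGF, KIT, CSF1 and VEGF group, which serve mesenchyme, blood and vessels, NRP1 alone was expressed (11.1 ± 0.683 FPKM), and KIT had 1 count in each library.

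Receptors of the TGF-beta family, whose ligands restrain epithelial growth, were expressed in 8 of 14 cases (57.1%, against 47.5% of all genes). TGFBR2 was at 22.6, 19.5 and 20.2 FPKM and TGFBR1 at 11.6, 10.3 and 9.96 FPKM. WNT receptors were expressed in 10 of 15 cases (66.7%), led by the co-receptor gene LRP5 (25.8 ± 0.662 FPKM) and LGR4 (18.6 ± 2.22 FPKM). LGR5, the stem cell gene of the intestine, had 0 counts, which allows at most 0.0359 FPKM. NOTCH2 (17.7 ± 0.143 FPKM) stood above NOTCH1 (2.18 ± 0.205 FPKM) in every library.

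Cytokine receptors were expressed in 10 of 28 cases (35.7%, against 47.5% of all genes). IL13RA1, a chain of the receptors for interleukins 13 and 4, led at 79.1, 68.0 and 68.3 FPKM. OSMR, the receptor for oncostatin M, was at 30.8, 27.8 and 28.2 FPKM, and its signalling partner IL6ST at 30.5, 16.7 and 16.3 FPKM, again highest in replicate 1. IL2RG (sharing reads), CSF2RB and CSF3R, of blood cells, had 0 counts. In the TNF receptor family 8 of 19 were expressed (42.1%, near the 47.5% of all genes). TNFRSF12A, the receptor for TWEAK, was at 57.1, 63.4 and 66.9 FPKM, and the death receptor genes TNFRSF10B (28.0 ± 1.82 FPKM) and TNFRSF10A (17.0 ± 0.707 FPKM) were expressed.

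No chemokine receptor was expressed, 0 of 18, against 47.5% of all genes, and 13 had 0 counts. CXCR4, the receptor for CXCL12, had 2, 1 and 1 counts, at or under the limit that a count of 0 allows (0.0646 FPKM). Of 23 receptors for gut hormones and neuropeptides only NTSR1 and GIPR were expressed (8.70%). NTSR1, the neurotensin receptor (chr20:62708836-62762771), was at 39.8, 38.9 and 36.8 FPKM, well above GIPR, the receptor for an incretin hormone, at 1.52, 2.19 and 1.82 FPKM. The cholecystokinin, secretin and GLP-1 receptor genes had 0 counts. ADORA2B, an adenosine receptor, was at 47.8, 60.5 and 60.7 FPKM.

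Nuclear receptors, which read steroid hormones and lipids, were expressed in 18 of 37 cases (48.6%), close to the share of all genes. The glucocorticoid receptor gene NR3C1 led at 20.5, 16.8 and 16.2 FPKM, and NR2F2 followed at 14.3, 15.4 and 14.8 FPKM. NR3C1 was the higher in every library, and the groups of values did not overlap. The progesterone receptor gene PGR had 0 counts, and ESR1 had 1, 1 and 2.

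Most metabolic families were led by a single isoform. Of 60 families, 55 had a leading gene that was expressed, and in 40 of these the leader was at least 2-fold above the next gene in every library. By mean level, the lead was at least 10-fold, or the next gene had 0 counts, in 30 of the 55. In 15 families the lead was smaller. Reads can be shared for 22 of the 194 listed metabolic genes, of which 13 were not expressed. A lead over such a gene, as of ALDOC over ALDOA, is uncertain. Some of the families are subunits that work together rather than alternatives, such as RRM1 with RRM2, MPC1 with MPC2 and the IDH3 chains. With principal transcript lengths 39 families had such a 2-fold lead, not all of them among the 40. The leader changed in 9 families, all of them among those with a smaller lead by the deposited lengths.

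**Figure D5:**
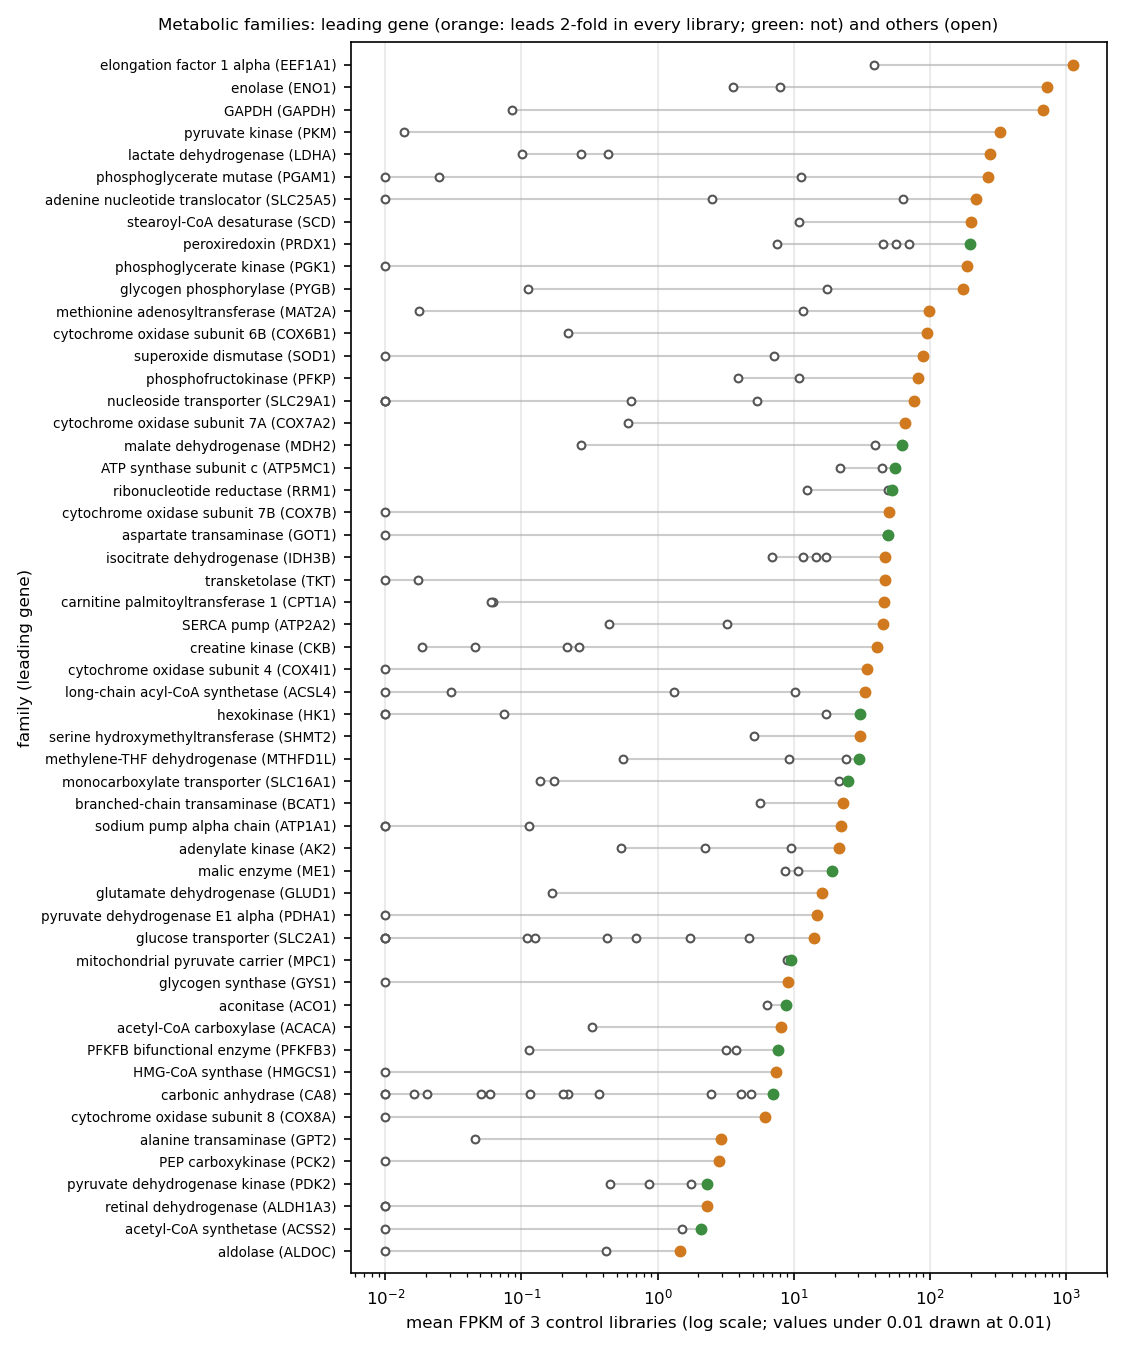
Mean FPKM over the 3 control-virus libraries (log axis) of the members of metabolic families with an expressed leader (rows, 1 such family not drawn). The filled point is the leading gene, orange where it led at least 2-fold in every library and green where it did not, and open points are the other members.

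Among the genes of glucose use, several steps had a clear leader by transcript level. SLC2A1, the glucose transporter GLUT1, was at 13.3, 14.9 and 14.4 FPKM, which was 3.03 ± 0.288 times the next transporter, SLC2A6. Hexokinase, the first step, was shared by the deposited lengths between HK1 (30.1, 31.3 and 31.3 FPKM) and HK2 (18.1, 17.6 and 16.6 FPKM). By principal length HK1 stood farther above HK2, at 59.0 ± 1.30 against 17.9 ± 0.803 FPKM. PFKP, the platelet-type phosphofructokinase, was at 81.4, 83.2 and 83.5 FPKM and led PFKM 7.60 ± 0.584 times. PKM, the pyruvate kinase of most tissues, was at 311, 339 and 334 FPKM, against 0, 2 and 0 counts for the liver form PKLR. ENO1 led ENO2 (sharing reads) 92.97 ± 8.35 times.

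LDHA, which turns pyruvate to lactate, was at 275, 278 and 286 FPKM. LDHB had 19, 17 and 26 counts (0.431 ± 0.0883 FPKM), but it shares reads with a neighbour, so the ratio of LDHA to LDHB, 663 ± 113 over the 3 libraries, is uncertain. Lactate export was divided between SLC16A1 (28.0, 23.4 and 24.6 FPKM) and SLC16A3 (18.4, 22.5 and 23.3 FPKM). By principal length the order reversed, to 38.8 and 95.9 FPKM. Glycogen phosphorylase was led by the brain form PYGB at 165, 181 and 183 FPKM, 10.1 ± 0.773 times the liver form PYGL, while the muscle form PYGM was at 0.112 ± 0.0795 FPKM. Of the gluconeogenic genes, PCK1 and FBP1 had 0 counts, and FBP2 had 1 count in all. PCK2, the sister of PCK1, was expressed at 2.62, 2.50 and 3.35 FPKM.

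GLUL, which makes glutamine, had 3, 5 and 5 counts and ASNS, which makes asparagine, had 7, 18 and 10. ASNS shares reads. GLUL is not marked as sharing them, but whether its low value lies in the counting could not be settled from the files. The adenine nucleotide carrier SLC25A5 (169, 242 and 241 FPKM) led SLC25A6 3.39 ± 0.442 times. For cytochrome oxidase the widely used forms COX4I1 (34.7 ± 6.34 FPKM) and COX7A2 (65.4 ± 18.8 FPKM) led, while COX4I2 had 0 counts and COX7A1, of heart and muscle, was at 0.606 ± 0.345 FPKM.

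In one-carbon metabolism, which moves carbon from serine onto folate, the mitochondrial gene SHMT2, the target of the study's knockdown virus, was at 28.3, 32.3 and 32.2 FPKM in these control libraries. Its cytosolic sister SHMT1 was at 4.98, 5.33 and 5.09 FPKM, so SHMT2 held 85.7 ± 0.658% of the family's FPKM. MTHFD1L (30.3 ± 3.45 FPKM) and MTHFD2 (24.5 ± 2.80 FPKM), the next mitochondrial steps, were close, and their order reversed by principal length (41.1 and 62.8 FPKM). ALDH1L2, which oxidises formyl folate in mitochondria, had a mean of 0.202 ± 0.0139 FPKM, and its cytosolic sister ALDH1L1 had 2, 0 and 0 counts.

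Lipid genes also had clear leaders. SCD, which puts the double bond into stearate, was at 197, 204 and 208 FPKM, 18.4 ± 1.1 times SCD5. CPT1A, the gate for fatty acids into mitochondria, was at 42.8, 48.4 and 47.4 FPKM, while CPT1B (sharing reads) and CPT1C were below 0.1 FPKM on average. ACSL4 (38.7, 29.9 and 31.7 FPKM, sharing reads) led the acyl-CoA synthetases.

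The isoforms of methionine and creatine metabolism gave contrasts that could be set beside their promoter sequence. MAT2A, the S-adenosylmethionine synthase of dividing cells, was at 101, 101 and 93.9 FPKM, while its liver sister MAT1A had 0, 3 and 0 counts (0.0177 ± 0.0307 FPKM). CKB, the brain-type creatine kinase, was at 37.3, 42.8 and 43.6 FPKM, while the muscle gene CKM was at 0.198, 0.292 and 0.157 FPKM. In each pair 1 gene is used in many tissues and the other in few. Below are the 150 bases before the RefSeq start of each gene (GRCh38.p14, gene strand, 5′ to 3′), with every CG dinucleotide in capitals. They are MAT2A chr2:85539018-85539167 on the plus strand, MAT1A chr10:80289659-80289808, CKB chr14:103522831-103522980 and CKM chr19:45322876-45323025, the last 3 on the minus strand.
MAT2A: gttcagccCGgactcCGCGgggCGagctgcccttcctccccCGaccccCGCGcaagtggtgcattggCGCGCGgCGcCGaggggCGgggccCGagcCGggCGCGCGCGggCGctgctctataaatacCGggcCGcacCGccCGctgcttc
MAT1A: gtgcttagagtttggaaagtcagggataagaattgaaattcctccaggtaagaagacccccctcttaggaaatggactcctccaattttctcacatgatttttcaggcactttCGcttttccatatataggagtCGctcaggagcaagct
CKB: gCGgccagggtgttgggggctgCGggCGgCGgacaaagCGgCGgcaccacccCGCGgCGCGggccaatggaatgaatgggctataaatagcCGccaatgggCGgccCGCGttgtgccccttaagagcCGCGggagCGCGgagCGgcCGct
CKM: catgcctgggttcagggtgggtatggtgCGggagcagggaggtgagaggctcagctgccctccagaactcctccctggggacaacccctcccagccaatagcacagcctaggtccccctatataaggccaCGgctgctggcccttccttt

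The printed stretches hold 24 CG dinucleotides for MAT2A and 20 for CKB, against 2 each for MAT1A and CKM. CG reads the same on both strands. Over 250 bases before the start the counts were 34, 27, 2 and 5 for MAT2A, CKB, MAT1A and CKM. Across the 15268 genes of the table that matched a RefSeq promoter, the median was 17, and 69.4% had 10 or more. Promoters of the 2985 genes with 0 counts in every library had a median of 4 CG, and 29.7% had 10 or more. For 4811 genes at 1 to 10 FPKM the median was 22, with 88.6% at 10 or more, and for 237 genes at 100 FPKM or above it was 21. CG content was thus higher among expressed than among silent genes but did not go on rising with level among the expressed ones. These are descriptions of sequence, and methylation was not measured.

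Agreement of the 3 libraries was closest between replicates 2 and 3. Over the same 9782 genes, Spearman's rho across genes was 0.997 for replicates 2 and 3, 0.980 for 1 and 2, and 0.978 for 1 and 3, where genes are not independent replicates. A difference of over 2-fold was found for 3 genes between replicates 2 and 3, 122 between 1 and 2, and 163 between 1 and 3. The chi-square of the counts per gene was 2.04 for replicates 2 and 3, above the value of 1 that sampling alone gives, so they were counted as 2 separate libraries. It was 24.6 and 29.4 for the pairs with replicate 1. The median coefficient of variation was 9.70% for genes of 1 to 10 FPKM and 7.12% for those of 10 to 100 FPKM, and 8.75% for those of 100 FPKM and above.

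The difference of replicate 1 moved with gene length. Over 3890 genes with a mean of at least 10 FPKM, grouped in 5 classes by length, the median log2 FPKM of replicate 1 minus the mean of replicates 2 and 3 was -0.25 in the shortest class (median length 1950.5 bases). It was 0.09 in the longest (9529.5 bases). The same medians for replicate 2 minus replicate 3 ran from -0.03 to 0.02. Of 73 cytosolic ribosomal protein genes at this level, 72 were lower in replicate 1, with a median of -0.51, against 2232 of all 3890 genes, with a median of -0.04. What set replicate 1 apart was not tested.

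Among the 10 genes with the widest range over the libraries, replicate 1 was always the extreme one. RPL37A (39.0, 84.2 and 97.8 FPKM), RPS27 (105, 214 and 253 FPKM), RPL36 (26.4, 53.6 and 59.8 FPKM) and FAU, of the ribosome, were low there, with MRPL54, TOMM7 and ROMO1 of the mitochondria. CWC22, of the spliceosome (17.4, 6.91 and 7.32 FPKM), TTK, the spindle checkpoint kinase gene (22.4, 9.78 and 9.06 FPKM), and MPHOSPH10 were high there. Only 27 of the 3890 genes differed by over 2-fold between replicate 1 and the mean of the others. SOX9, WWTR1, AXL and EPHA2 among the genes described above differed little between libraries, whereas KRT18, IL6ST, ZEB1 and TMSB10 followed the split.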

How the data were processed

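RNA-seq of 3 control-virus libraries of PANC-1 cells was described. RNA was extracted with TRIzol and made into libraries with an NEBNext Ultra II kit, per the labels' protocols. How reads were aligned and counted, the strand setting and the annotation are not given here. Per the file headers, the deposited table holds a read count, in whole numbers, and an FPKM value for each gene and library. The deposited FPKM equal count divided by length and column total (largest relative difference 2.27e-07).

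Values were summarised with Python 3.11.15 (pandas 2.3.3, numpy 2.4.6, scipy 1.17.1). TMM factors for an alternative scaling came from edgeR 4.0.16 in R 4.3.3. There was 1 group, so no test was made. A gene was expressed at 1 FPKM or more in every library. Genes whose span overlaps another gene of the table on the same strand, or that share at least 20% of exon bases with one in GENCODE 29 (19852 genes found), were marked as sharing reads. Coordinates are those of the table (GRCh38). Promoters are RefSeq's (GRCh38.p14), matched by symbol or identifier. Only the chi-square of counts and a 2-fold difference in counts were tried on simulated data.

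The members and lists were chosen with earlier results of these data known. Genes named are the 25 with the highest mean FPKM, members of the lists and keratins, and the 10 genes of at least 10 FPKM with the widest range. Alternatives were other thresholds, TPM, TMM scaling, other rankings and each library left out. Principal transcript lengths and leaving out genes that share reads were added after seeing the data. The table's 629 genes without a symbol were kept in counts of genes. Some listed genes enter the counts but are not reported here by name.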

Additional observations from a re-analysis of the deposited data

How the results depend on the processing

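No paired analysis was possible because only 1 group is described and no test was made. The number of expressed genes ranged from 8230 at a threshold of 2 FPKM to 11140 at 1 TPM, against 9525, and was 9563 to 9643 with each library left out in turn. The share of counts in the 25 most abundant genes was 10.98% to 11.8% with each library left out. It was 31.1% as a share of TPM, which weights short genes more, 7.0% without the mitochondrially encoded genes, and 12.4% with genes ranked by read count. The mean over pairs of the median absolute log2 difference, 0.15, ranged from 0.069 to 0.19 with each library left out, and was lowest without replicate 1. Lineage factors (41 to 60 expressed), receptors (107 to 154), keratins (5 to 7) and families with a clear leader (33 at a 5-fold lead to 50 at a lead of any size, against 40) stayed within 1.5 times the values given, under every alternative run. Of 131 named genes, 95 moved by more than 1 SD of their level with principal transcript lengths and 0 with TMM scaling. Leaving out 1 of 3 libraries cannot move a mean that far, so it says nothing here. Depth limits low genes: those of 0.1 to 1 FPKM had a median of 24 counts and a coefficient of variation of 22.9%.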

Other observations

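Beyond the lists above, the genes ranked 26 to 65 by mean FPKM were chosen after their values were seen. FTL, the light chain of the iron store ferritin, was at 470, 681 and 701 FPKM, lowest in replicate 1, while FTH1, the heavy chain, was at 35.9 ± 11.1 FPKM. HMGA1, a chromatin protein gene of embryonic and tumour cells, was at 663, 560 and 552 FPKM, highest in replicate 1. TM4SF1, a surface protein gene, was at 490, 487 and 495 FPKM, and IGFBP4, which encodes a secreted binder of insulin-like growth factors, at 421, 511 and 523 FPKM. The small calcium-binding protein genes S100A11 (496 ± 85.7 FPKM), S100A6 (460 ± 148 FPKM) and S100A10 (423 ± 108 FPKM) could not be ordered beyond their spread. S100A2 was at 2.36 ± 1.0 FPKM and S100P, often abundant in pancreatic cancer, at 0.222 ± 0.0804 FPKM. ACTN4, an actin crosslinker gene that lies just before the chromosome 19 stretch, was at 355, 349 and 336 FPKM.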
